A study of Mus musculus with 6 samples.

Results

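The neuropeptide Y receptor genes were followed in mouse lung alveolar organoid cells grown in 3 culture conditions. The members are the 4 rows Npy1r, Npy2r, Npy5r and Npy6r of a table of 23224 genes. They were chosen by their measured counts across the conditions, for the loss of Npy2r and the gain of Npy6r. Their levels across conditions are therefore a description, and no p-value is attached to them. The other family receptor in the table, Npy4r, is listed there under its older symbol Ppyr1 and is given beside them.

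All 6 libraries carry the genotype Sftpc-eGFP, and all cells had been kept inside matrigel drops in FNHCS medium until treatment. Each treatment then lasted 7 days before the cells were taken apart with TrypLE for polyA RNA sequencing. The condition called 2D FBS was flat growth in Ad-DMEM F/12 that held 10% fetal bovine serum (FBS), and the sample titles call these libraries type I. In 2D FNHCS they grew flat in FNHCS medium, under titles that name both AT2 and AT1. In the control condition, 3D FNHCS, they stayed in matrigel drops with FNHCS medium, under titles that name type II. Lines SN3593 and SN3595 gave 1 library each to every condition, and values below are given in that order. Separate animals are not named as the origin of the lines, so the spread between them may be partly technical. The step between 2D FBS and 2D FNHCS both adds serum and removes FNHCS medium, and these changes cannot be told apart. The sources used here do not say whether cells were sorted on eGFP.

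Neuropeptide Y receptors are G protein-coupled receptors for 3 related amidated peptides, namely neuropeptide Y, peptide YY and pancreatic polypeptide, encoded by Npy, Pyy and Ppy. They act mainly through inhibitory G proteins, which lower cyclic AMP made by adenylyl cyclases and can open inwardly rectifying potassium channels. Npy1r and Npy5r encode the Y1 and Y5 receptors, of which Y1 prefers full-length neuropeptide Y and peptide YY. Npy2r encodes the Y2 receptor, which also accepts the shorter peptides left after cleavage by the protease DPP4. In the mouse vagus nerve, Npy2r marks a class of sensory neurons that reach the lung. Npy6r encodes a receptor in the mouse, and its human counterpart does not give a full-length protein.

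Start regions are shown for Npy2r, the member with the widest range of counts, and for Npy1r and Npy5r, which lie next to each other and were low in all conditions. Each runs from 250 bases before to 50 bases after the annotated start (RefSeq, GRCm38.p6) and is written on the gene's own strand. Capitals mark the letters ACGTG or GCGTG on either strand. The windows are chr3:82548036-82548335 on the minus strand for Npy2r, chr8:66697172-66697471 on the plus strand for Npy1r and chr8:66688045-66688344 on the minus strand for Npy5r.
Npy2r: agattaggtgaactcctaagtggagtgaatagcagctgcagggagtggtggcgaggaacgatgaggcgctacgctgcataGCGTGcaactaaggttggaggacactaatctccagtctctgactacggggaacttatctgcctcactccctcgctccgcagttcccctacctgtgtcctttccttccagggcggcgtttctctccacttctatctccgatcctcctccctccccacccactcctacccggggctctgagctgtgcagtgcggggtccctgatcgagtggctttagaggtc
Npy1r: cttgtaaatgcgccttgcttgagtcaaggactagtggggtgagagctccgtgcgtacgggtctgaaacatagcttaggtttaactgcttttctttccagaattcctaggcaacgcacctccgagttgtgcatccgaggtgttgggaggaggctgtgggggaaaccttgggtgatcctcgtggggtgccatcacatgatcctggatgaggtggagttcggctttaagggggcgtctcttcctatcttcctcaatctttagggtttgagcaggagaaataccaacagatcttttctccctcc
Npy5r: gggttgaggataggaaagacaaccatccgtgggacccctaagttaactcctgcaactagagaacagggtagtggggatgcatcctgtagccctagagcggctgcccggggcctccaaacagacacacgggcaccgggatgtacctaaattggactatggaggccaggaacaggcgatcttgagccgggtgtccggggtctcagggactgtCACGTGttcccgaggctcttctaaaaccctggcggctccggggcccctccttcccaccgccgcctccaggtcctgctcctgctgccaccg

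The Npy2r window had a GC content of 57.7% and 14 CG pairs, the Npy1r window 51.7% and 10, and the Npy5r window 61.7% and 15. The median over 32851 mouse promoters of the same length was 52.7% GC and 7 CG pairs. Both strands were searched for the hypoxia-response core ACGTG and its variant GCGTG, for the TATA box TATAAA, the CCAAT box, the GC box GGGCGG and the cyclic AMP response element TGACGTCA. The Npy2r window held 1 GCGTG, whose first base lies at -170 from the start site, and 1 GGGCGG. Of all promoters, 32.4% held GCGTG and 35.7% held GGGCGG. The Npy5r window held ACGTG on both strands in 1 palindrome and 1 CCAAT on the reverse strand, letters that 19.6% and 37.4% of promoters held on either strand. None of the 6 motifs was in the Npy1r window. TATAAA was in 13.6% and TGACGTCA in 1.79% of promoters. A match describes letters, not a bound site.

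Libraries held between 33634368 and 43334665 expected counts, which are estimated read numbers per gene. CPM are counts scaled by library total and TMM factor, as edgeR reports them. Where a library had 0 counts, 3 counts served as the upper limit, or 0.0692 to 0.0892 CPM of the library totals. For the fold bounds below, these 3 counts were also scaled by TMM factor, so their CPM differ from that range. Of the 4 members, Npy1r, Npy2r and Npy6r passed edgeR's default filter on low counts and Npy5r did not. Npy2r passed through its 3D FNHCS libraries and Npy6r through its 2D FBS libraries.

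Npy2r was a gene of the 3D culture. It had 1 and 0 counts in 2D FBS, 22 and 8 counts in 2D FNHCS, and 5498.14 and 8418.91 counts in 3D FNHCS. The 3D libraries stood far above the other 4 and no condition overlapped another. Over all 14416 genes tested, libraries did not overlap for 59.7% of genes between 2D FBS and 2D FNHCS, for 75.1% between 2D FBS and 3D FNHCS, and for 63.7% between 2D FNHCS and 3D FNHCS. Nothing is read from the separation of Npy2r or Npy6r, since it chose them.

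In CPM, Npy2r averaged 0.0144 ± 0.0203 in 2D FBS, 0.3786 ± 0.27 in 2D FNHCS and 199 ± 56.9 in 3D FNHCS (SD, n = 2 each). Flat culture in unchanged medium went with a log2 fold change of -9.04 ± 0.579 (SE). As a ratio of summed counts, Npy2r was 538-fold lower in 2D FNHCS than in 3D FNHCS, with an exact 95% counting interval of 377 to 798. Such intervals cover counting error alone. Within SN3593 the level was 278-fold lower and within SN3595 it was 1272-fold lower, so both lines went the same way with unequal size. In 2D FBS it was 14774-fold lower than in 3D FNHCS (2651 to 583565), a ratio that rests on 1 count in 2D FBS. Between the flat cultures it was 27.4-fold lower in 2D FBS than in 2D FNHCS (4.56 to 1119), again from 1 count. RNA was taken from whole cultures, where fewer expressing cells and less RNA per cell cannot be told apart.

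Npy6r was counted in 2D FBS alone. It had 562.86 and 222.56 counts in 2D FBS, 0 and 0 counts in 2D FNHCS, and 0 and 0 counts in 3D FNHCS. Both serum libraries were well above 0 and SN3593 was 2.87 times SN3595 after scaling. The 2D FBS mean was 10.9 ± 7.45 CPM (SD, n = 2). Set against 3 counts per library, Npy6r was at least 147-fold higher in 2D FBS than in 2D FNHCS, and at least 127-fold higher in 2D FBS than in 3D FNHCS. The reference annotation places 1 other gene, Gm41716, over Npy6r. Gm41716 has no row in the table, and the sources used here do not say whether strand was counted, so reads of these overlapping genes cannot be told apart.

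**Figure D1:**
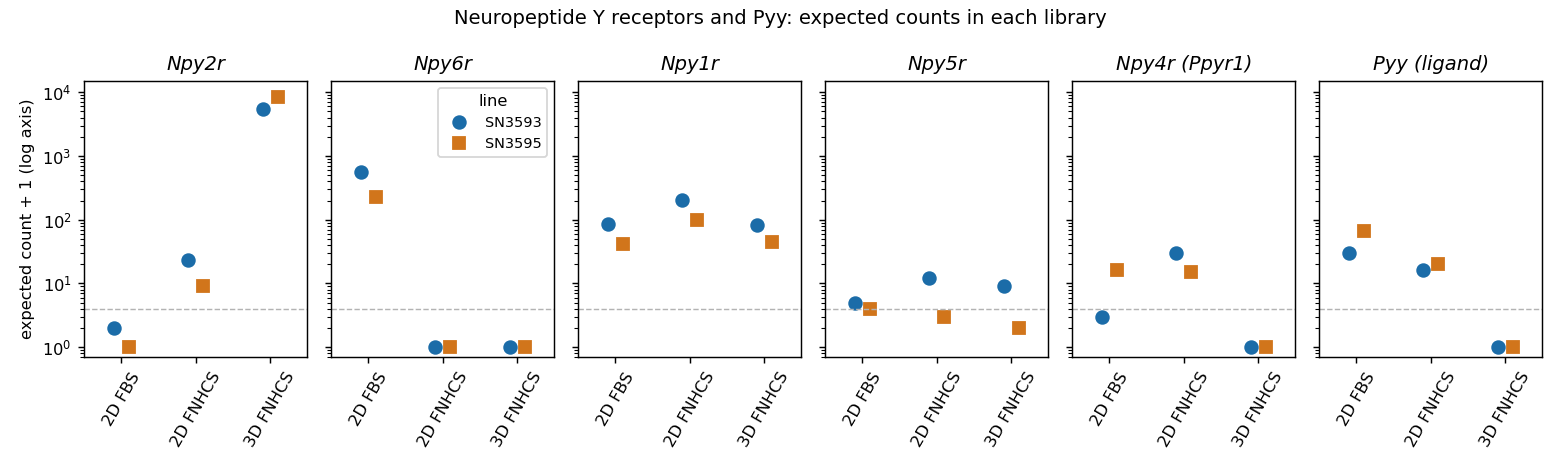
Expected count plus 1 on a log axis in each library for the 4 members, for Npy4r (Ppyr1) and for the ligand gene Pyy. Circles are line SN3593, squares are line SN3595, and the dashed line marks 3 counts. Npy2r reaches 5498.14 and 8418.91 counts in 3D FNHCS, whereas Npy6r is above 0 in the 2D FBS libraries.

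Npy1r was present at a low level in every library. It had 83.32 and 40.75 counts in 2D FBS, 206.39 and 97.15 counts in 2D FNHCS, and 82.6 and 44.02 counts in 3D FNHCS. Scaled, this was 2.39 and 1.03 CPM in 2D FBS, 5.34 and 2.28 CPM in 2D FNHCS, and 2.38 and 1.25 CPM in 3D FNHCS. The 2D FNHCS library of SN3593 was the highest, and on this scale all 3 conditions overlapped. Means were 1.71 ± 0.963 CPM in 2D FBS, 3.81 ± 2.17 CPM in 2D FNHCS and 1.81 ± 0.799 CPM in 3D FNHCS (SD, n = 2 each).

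The Npy1r log2 fold change was -1.15 ± 0.641 (SE) in 2D FBS against 2D FNHCS, -0.09 ± 0.642 in 2D FBS against 3D FNHCS, and 1.06 ± 0.64 in 2D FNHCS against 3D FNHCS. Within lines the step was steadier. In SN3593 the log2 ratio was -1.16 in 2D FBS against 2D FNHCS and 1.17 in 2D FNHCS against 3D FNHCS. In SN3595 it was -1.14 and 0.87 for those comparisons. Summed counts gave a level 2.23-fold lower in 2D FBS than in 2D FNHCS (1.81 to 2.78) and 2.06-fold higher in 2D FNHCS than in 3D FNHCS (1.67 to 2.55). For 2D FBS against 3D FNHCS the ratio was 1.09-fold lower with an interval of 0.842 to 1.4, which includes equal levels. These intervals cover counting error alone and leave out the spread between libraries.

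Rows of genes typical of the nose were high in the same library as Npy1r. The table has 1123 rows whose symbols start with Olfr and 333 that start with Vmn, the odorant and vomeronasal receptor families, a group chosen after its values were seen. Their summed level was 386 and 301 CPM in 2D FBS, 872 and 361 CPM in 2D FNHCS, and 431 and 243 CPM in 3D FNHCS. Both the highest sum and the highest Npy1r level, 5.34 CPM, were in the 2D FNHCS library of SN3593. Per 1000 CPM of that sum, Npy1r stood at 6.2 and 3.43 CPM in 2D FBS, 6.13 and 6.31 CPM in 2D FNHCS, and 5.52 and 5.14 CPM in 3D FNHCS. Of the 1408 of these rows that had a transcript length, between 0.355% and 0.781% were at or above Npy1r per kb of longest transcript in a library. The part of this background in the Npy1r level was not tested.

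**Figure D2:**
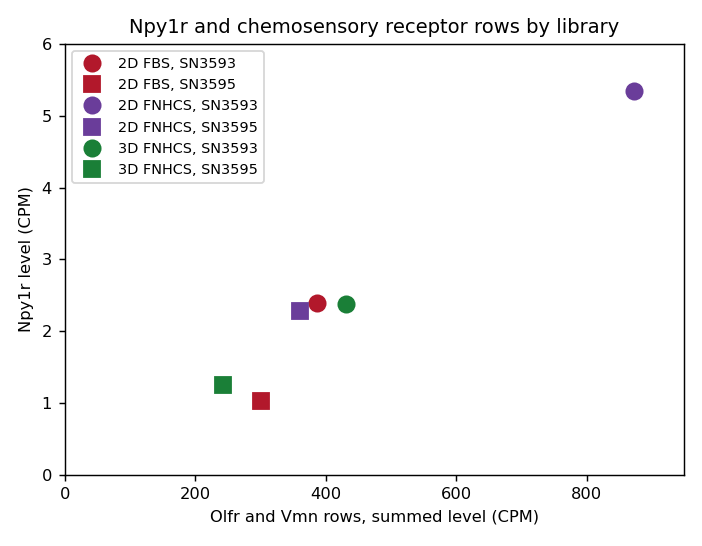
Npy1r level in CPM against the summed CPM of all Olfr and Vmn rows, 1 point per library, coloured by condition and shaped by line. The 2D FNHCS library of SN3593 is highest on both axes, at 872 CPM for the sum and 5.34 CPM for Npy1r.

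Npy5r, the neighbour of Npy1r on chromosome 8, stayed near the limit of detection. It had 4 and 3 counts in 2D FBS, 11 and 2 counts in 2D FNHCS, and 8 and 1 counts in 3D FNHCS. All 3 conditions overlapped, and in each the SN3593 library had more counts. The ratio of summed counts was 1.7-fold lower in 2D FBS than in 2D FNHCS (0.63 to 5.03), 1.36-fold lower in 2D FBS than in 3D FNHCS (0.452 to 4.31), and 1.24-fold higher in 2D FNHCS than in 3D FNHCS (0.492 to 3.3). A difference between conditions was not detectable at this depth. In single libraries, 5.68% to 26.5% of the Olfr and Vmn rows with a length were at or above Npy5r per kb.

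Npy4r, whose receptor prefers pancreatic polypeptide, had 2 and 15 counts in 2D FBS, 29 and 14 counts in 2D FNHCS, and 0 and 0 counts in 3D FNHCS. In 2D FNHCS it was higher than in 3D FNHCS by at least 6.29-fold, with adjusted p = 0.0501, just outside the limit of 0.05 (edgeR). The bound for 2D FBS against 3D FNHCS was at least 2.55-fold higher, with adjusted p = 0.0597. In 2D FBS against 2D FNHCS the log2 fold change was -1.26 ± 0.988 (adjusted p = 0.436, edgeR). DESeq2 called Npy4r higher in both flat conditions than in 3D FNHCS. Without a filter or with library size alone, edgeR called it in 2D FNHCS against 3D FNHCS. Of the Olfr and Vmn rows with a length, 31.4% and 4.19% were at or above Npy4r per kb in 2D FBS. In 2D FNHCS these shares were 4.33% and 4.4%.

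No run of 25 bases was shared between the transcripts of any pair of these 5 receptor genes in GENCODE release M21.

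Levels per kb of transcript place the members among peptide receptors. Of 83 such receptors ranked by CPM per kb of longest transcript, Npy2r was first in both 3D FNHCS libraries, at 47.1 and 71.0 CPM per kb. With the shortest transcript it was again first. In 2D FNHCS its level was 0.169 and 0.0558 CPM per kb, and it ranked 13 and 17. There, 6.04% and 8.95% of the Olfr and Vmn rows with a length were at or above Npy2r per kb. This share was 43.0% in the 2D FBS library of SN3593 and 0% in both 3D FNHCS libraries. The part of this background in the Npy2r counts of flat culture was not tested. In 2D FBS, Npy6r ranked 1 and 2, at 6.3 and 2.2 CPM per kb, and it ranked 1 and 3 when the shortest transcripts were used. Npy1r ranked 2 in both 2D FNHCS libraries, at 1.78 and 0.76 CPM per kb, but 5 and 6 with the shortest transcripts. Among the 4 members the order in 2D FBS was Npy6r, then Npy1r at 0.798 and 0.344 CPM per kb, then Npy5r at 0.0497 and 0.0328, then Npy2r at 0.00854 and 0, with no overlap between neighbours. In 2D FNHCS, Npy1r led, Npy2r and Npy5r (0.123 and 0.0203 CPM per kb) overlapped, and Npy6r was at 0. In 3D FNHCS, Npy2r led, followed by Npy1r at 0.793 and 0.416 CPM per kb, Npy5r at 0.0996 and 0.0123, and Npy6r at 0.

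**Figure D3:**
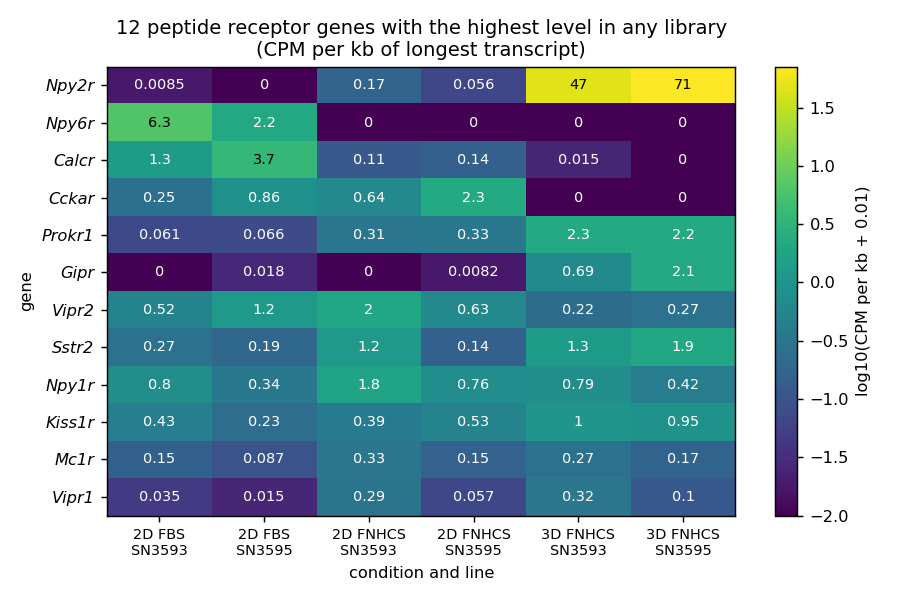
Heat map of CPM per kb of longest transcript for the 12 peptide receptor genes with the highest level in any library, on a log10 colour scale with 0.01 added. Columns are libraries by condition and line, and the printed number in each cell is the CPM per kb. Npy2r at 47.1 and 71.0 CPM per kb in 3D FNHCS is the highest entry, and Npy6r leads or is second in 2D FBS.

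Of the 78 other peptide receptors in the table, 10 passed the filter. In 2D FBS against 2D FNHCS 1 rose and 1 fell, in 2D FBS against 3D FNHCS 2 rose and 3 fell, and in 2D FNHCS against 3D FNHCS 1 rose and 2 fell. Over all genes tested, 5.85% rose and 4.77% fell in the first comparison, 19.9% rose and 20.5% fell in the second, and 8.63% rose and 9.77% fell in the third. Calcr, the calcitonin receptor gene, shared its condition with Npy6r. It had 168 and 544 counts in 2D FBS, 16 and 23 counts in 2D FNHCS, and 2 and 0 counts in 3D FNHCS. It rose in 2D FBS against 3D FNHCS (log2 fold change 8.19 ± 1.01, adjusted p = 0.00247). Its rise in 2D FBS against 2D FNHCS (4.27 ± 0.746, adjusted p = 0.0242) was lost without any 1 of the 4 flat libraries, with adjusted p up to 0.0989. Unlike Npy6r, it was higher in SN3595.

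Prokr1 and Gipr, receptor genes for prokineticins and for the incretin GIP, shared the condition of Npy2r. Prokr1 had 9 and 11 counts in 2D FBS, 51.34 and 60 counts in 2D FNHCS, and 334.97 and 333 counts in 3D FNHCS. It fell in 2D FNHCS against 3D FNHCS (-2.8 ± 0.306, adjusted p = 0.00606) and in 2D FBS against 3D FNHCS (-5.13 ± 0.354, adjusted p = 0.000766). Gipr had 0 and 2 counts in 2D FBS, 0 and 1 counts in 2D FNHCS, and 68 and 210 counts in 3D FNHCS. It was 323-fold lower in 2D FNHCS than in 3D FNHCS by summed counts (57.4 to 12791, from 1 count; adjusted p = 0.0122). Cckar, a cholecystokinin receptor gene, had counts in the flat conditions alone and within each line was highest in 2D FNHCS. It had 28 and 109 counts in 2D FBS, 80 and 315 counts in 2D FNHCS, and 0 and 0 counts in 3D FNHCS. It was at least 20.8-fold higher in 2D FBS than in 3D FNHCS (adjusted p = 0.0132).

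Transcripts of the ligands were scarce. Npy and Ppy had 0 counts in all 6 libraries. Pyy had 29 and 65 counts in 2D FBS, 15 and 19.09 counts in 2D FNHCS, and 0 and 0 counts in 3D FNHCS, the condition where Npy2r was high. Both flat conditions lay above 3D FNHCS, and 2D FBS lay above 2D FNHCS. Pyy rose at least 14.5-fold in 2D FBS against 3D FNHCS (adjusted p = 0.00454) and was called without any 1 library. It rose at least 4.88-fold in 2D FNHCS against 3D FNHCS (adjusted p = 0.0212), a call lost without the 2D FNHCS library of SN3595 or either 3D FNHCS library (adjusted p up to 0.0829). In 2D FBS against 2D FNHCS its log2 fold change was 1.57 ± 0.606 (adjusted p = 0.164).

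The ligand, peptide processing and signalling genes and Npy4r formed lists of 76 genes that hold no member, of which 56 passed the filter and 20 did not. In 2D FBS against 2D FNHCS 4 rose and 6 fell, in 2D FBS against 3D FNHCS 14 rose and 9 fell, and in 2D FNHCS against 3D FNHCS 7 rose and 6 fell. These make 17.9%, 41.1% and 23.2% of the 56, beside 10.6%, 40.5% and 18.4% of all genes. With line as a replicate block 15, 25 and 18 of the 56 were called, beside 18.7%, 49.3% and 29.0% of all genes. The median log2 fold change of the 56 was 0.22, 0.36 and 0.28 in that order, against -0.06, -0.03 and 0.03 over all genes. Calls that held without any 1 library numbered 2, 11 and 6. On leaving out SN3593 or SN3595 from 2D FBS the first comparison had 2 or 4 calls, and it had 5 on leaving out SN3593 from 2D FNHCS. The second had 15 without the 2D FBS library of SN3595, 11 without the 3D FNHCS library of SN3593 and 15 without that of SN3595. The third had 8 without the 2D FNHCS library of SN3595, 6 without the 3D FNHCS library of SN3593 and 7 without that of SN3595.

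**Figure D4:**
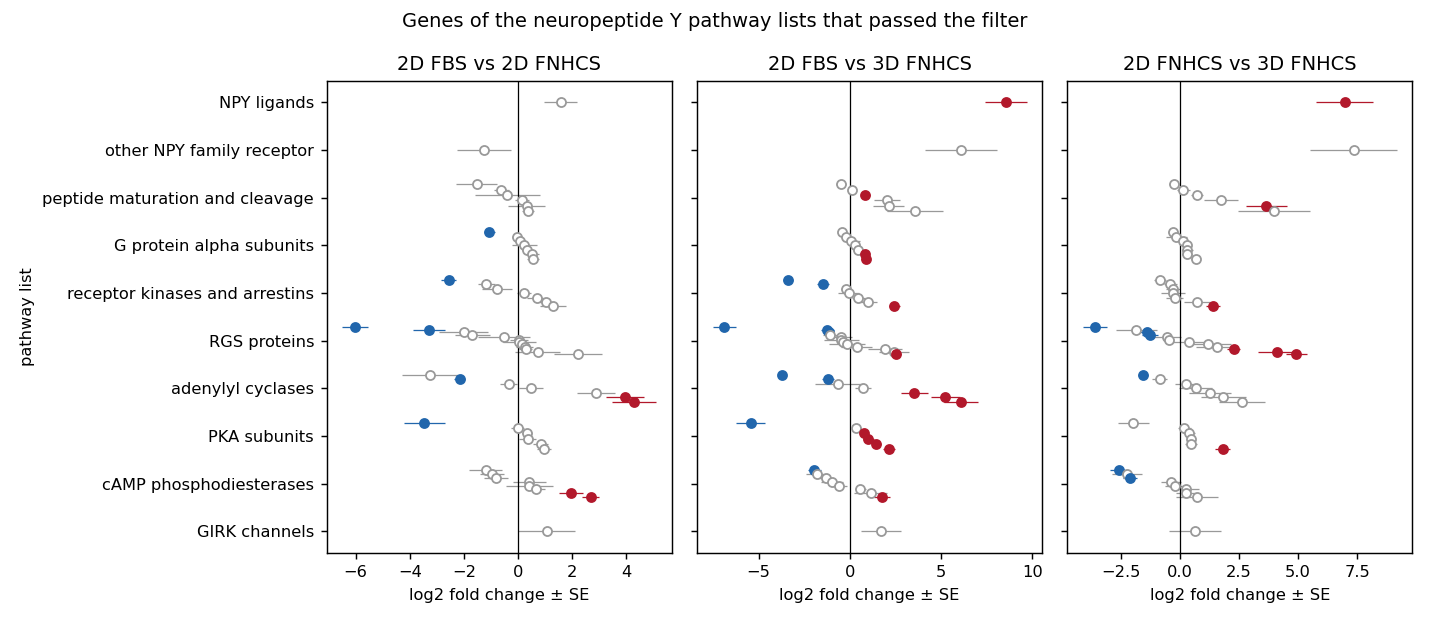
Log2 fold change with its SE for each gene of the pathway lists that passed the filter, in the 3 comparisons of conditions. Filled red points rose and filled blue points fell at an adjusted p below 0.05, and open points were not called. Of 56 genes, 10, 23 and 13 were called from left to right.

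Peptide processing genes were tested for 6 of a list of 10. In 2D FBS against 2D FNHCS 0 were called by edgeR or DESeq2, and 0 had an unadjusted p under 0.05. In each comparison with 3D FNHCS 1 rose by edgeR. DESeq2, which tested all 10, called 4 higher in 2D FBS and 3 higher in 2D FNHCS than in 3D FNHCS, adding Cpe and Mme in both and Scg5 in 2D FBS. Pam, whose enzyme adds the terminal amide of these peptides, rose by 0.85 ± 0.255 in 2D FBS against 3D FNHCS (adjusted p = 0.0395), a call lost on leaving out SN3593's 2D FBS library or either 3D FNHCS library (adjusted p up to 0.186). Scg5, whose product helps a prohormone convertase mature, rose by 3.66 ± 0.865 in 2D FNHCS against 3D FNHCS (adjusted p = 0.0357), a call that held without the 2D FNHCS library of SN3595 and was lost without any 1 of the other 5 libraries (adjusted p up to 0.171). Dpp4, whose protease trims the peptides toward the forms that Npy2r's product accepts, had 4518.8 and 3172.28 counts in 2D FBS, 5513.99 and 7668.26 counts in 2D FNHCS, and 4949.35 and 5206.19 counts in 3D FNHCS. Dpp4 was not called in any comparison (adjusted p = 0.186, 0.21 and 0.709).

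Inhibitory G protein genes were expressed in every library. Gnai2 had 15763.28 and 19766.76 counts in 2D FBS, 11053.23 and 15612.84 counts in 2D FNHCS, and 8222.02 and 10169.28 counts in 3D FNHCS. It rose in 2D FBS against 3D FNHCS (0.86 ± 0.222, adjusted p = 0.0246), a call lost without any 1 of those 4 libraries (adjusted p up to 0.167). Of the 7 alpha subunit genes tested, Gnai1 fell in 2D FBS against 2D FNHCS (-1.07 ± 0.2, adjusted p = 0.028; up to 0.167, and lost without any 1 of those 4 libraries). In 2D FNHCS against 3D FNHCS, where Npy2r was 538-fold lower, 0 were called by edgeR or DESeq2 and 1 had an unadjusted p under 0.05 by each. With line as a block Gnai1 was called there (adjusted p = 0.0426), against 0.0661 without. The neuronal subunit gene Gnao1 had 1 to 5 counts per library.

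Kinases and arrestins switch off activated receptors. Adrbk2, the older symbol of the receptor kinase gene Grk3, had 161.43 and 193 counts in 2D FBS, 1233.73 and 1053.74 counts in 2D FNHCS, and 1376.23 and 2157.82 counts in 3D FNHCS. It was lowest in both serum libraries and fell by 3.4 ± 0.282 on the log2 scale against 3D FNHCS (adjusted p = 0.00107). Grk6, another receptor kinase gene, had 1804.99 and 1890.89 counts in 2D FBS, 799 and 1194.99 counts in 2D FNHCS, and 248 and 398 counts in 3D FNHCS. It rose by 2.44 ± 0.284 in 2D FBS against 3D FNHCS (adjusted p = 0.00215). Of 7 genes tested, 1 fell in 2D FBS against 2D FNHCS, 1 rose and 2 fell in 2D FBS against 3D FNHCS, and 1 rose in 2D FNHCS against 3D FNHCS.

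RGS proteins speed up the return of G proteins to their inactive state. Of 12 tested among 18, 2 fell in 2D FBS against 2D FNHCS, 1 rose and 3 fell in 2D FBS against 3D FNHCS, and 3 rose and 3 fell in 2D FNHCS against 3D FNHCS. Rgs4 had 145 and 186 counts in 2D FBS, 14665.42 and 8328.3 counts in 2D FNHCS, and 243 and 424 counts in 3D FNHCS. It peaked in 2D FNHCS, with a rise of 4.92 ± 0.448 against 3D FNHCS (adjusted p = 0.0044) and a fall of 2D FBS against 2D FNHCS (-6.02 ± 0.473, adjusted p = 0.00613). Rgs16 followed the order of Npy2r. It had 12 and 18 counts in 2D FBS, 75 and 256 counts in 2D FNHCS, and 1737.73 and 1627 counts in 3D FNHCS. It fell in 2D FNHCS against 3D FNHCS (-3.59 ± 0.524, adjusted p = 0.0105) and in 2D FBS against 3D FNHCS (-6.89 ± 0.64, adjusted p = 0.00135). Rgs12 rose in both flat conditions against 3D FNHCS, by 2.55 ± 0.267 in 2D FBS (adjusted p = 0.00165) and by 2.27 ± 0.264 in 2D FNHCS (adjusted p = 0.00695).

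Adenylyl cyclases make cyclic AMP, and inhibitory G proteins restrain some of their isoforms but not all. Of 7 tested among 9, 2 rose and 1 fell in 2D FBS against 2D FNHCS, 3 rose and 2 fell in 2D FBS against 3D FNHCS, and 1 fell in 2D FNHCS against 3D FNHCS. Adcy5, an isoform inhibited by these G proteins, had 214 and 241 counts in 2D FBS, 4 and 22 counts in 2D FNHCS, and 5 and 1 counts in 3D FNHCS. Like Npy6r it was highest in both serum libraries, and it rose by 6.1 ± 0.954 against 3D FNHCS (adjusted p = 0.0048). Adcy7 had 87.83 and 99 counts in 2D FBS, 392.22 and 530 counts in 2D FNHCS, and 1141.64 and 1213 counts in 3D FNHCS. It fell in 2D FBS against 3D FNHCS (-3.74 ± 0.218, adjusted p = 0.00074) and in 2D FNHCS against 3D FNHCS (-1.57 ± 0.198, adjusted p = 0.00811).

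Protein kinase A and phosphodiesterases act on the cyclic AMP made. Of the 6 kinase subunit genes, 1 fell in 2D FBS against 2D FNHCS, 4 rose and 1 fell in 2D FBS against 3D FNHCS, and 1 rose in 2D FNHCS against 3D FNHCS. The regulatory subunit genes parted in 2D FBS against 3D FNHCS, where Prkar2a rose (2.16 ± 0.332, adjusted p = 0.00453) and Prkar2b fell (-5.43 ± 0.797, adjusted p = 0.00394). Prkar2b had 19 and 5 counts in 2D FBS, 208 and 84 counts in 2D FNHCS, and 518 and 486.54 counts in 3D FNHCS. Of 8 phosphodiesterase genes tested among 10, 2 rose in 2D FBS against 2D FNHCS, 1 rose and 1 fell in 2D FBS against 3D FNHCS, and 2 fell in 2D FNHCS against 3D FNHCS. Pde4b was lowest in 2D FNHCS, rising in 2D FBS against it (2.68 ± 0.313, adjusted p = 0.0107) and falling in 2D FNHCS against 3D FNHCS (-2.11 ± 0.307, adjusted p = 0.0104). Of 4 potassium channel genes opened through these receptors, Kcnj6 alone passed the filter and was not called.

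The contrast between the lines was not used to pick the members and was tested in a fit with condition as a further term. Npy1r was higher in SN3593 than in SN3595 in 3 of 3 conditions, by 2.32 times in 2D FBS, 2.34 times in 2D FNHCS and 1.91 times in 3D FNHCS. The Olfr and Vmn sum was also higher in SN3593, at 386 against 301 CPM in 2D FBS. It was 872 against 361 CPM in 2D FNHCS and 431 against 243 CPM in 3D FNHCS. Per 1000 CPM of that sum, Npy1r stood at 6.2 and 3.43 CPM in 2D FBS. This was 6.13 and 6.31 CPM in 2D FNHCS, and 5.52 and 5.14 CPM in 3D FNHCS. The part of this background in the line difference was not tested. The Npy1r log2 difference was 1.12 ± 0.253 (SE). Its unadjusted p was 0.0059 and its adjusted p 0.163 by edgeR, so it was not called. DESeq2 called it (adjusted p = 0.0283), and leaving out libraries gave adjusted p from 0.288 to 0.41 with edgeR. Npy6r was 2.87 times higher in SN3593 in 2D FBS, where 1 library stands against 1, and with 0 counts elsewhere no test of the lines is given for it. Npy2r had no common direction, at 3.03 times SN3595 in 2D FNHCS and 0.663 times in 3D FNHCS (-0.05 ± 0.467, adjusted p = 0.964). Leaving out a library moved the Npy2r difference between -0.56 and 1.61. Thus 0 of these 2 members, Npy1r and Npy2r, were called by edgeR, 1 had an unadjusted p under 0.05, and DESeq2 called 1. Over all genes 0.00694% were called between the lines by edgeR and 18.6% had an unadjusted p under 0.05, while DESeq2 called 5.24%.

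Genes next to the members in the reference gene order were compared across the same conditions. Beside Npy2r, Mtap9 had 294 and 326 counts in 2D FBS, 323.01 and 306 counts in 2D FNHCS, and 383 and 490.42 counts in 3D FNHCS. Mtap9 was not called in any comparison (adjusted p = 0.794, 0.0969 and 0.0936). The other side of Npy2r, Rbm46, had 2 to 5 counts per library. Beside Npy6r, Spink11 had 0 or 1 count and Myot 0 to 8 counts per library, and the next gene with more counts, Dcp2, was not called (adjusted p = 0.263, 0.197 and 0.966). Around Npy1r and Npy5r, Naf1 was not called (adjusted p = 0.732, 0.126 and 0.103) and Tktl2 had 0 counts throughout.

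Across the 6 libraries the genes with patterns most like each member were ranked by Pearson correlation of log2 CPM over the 12239 genes that averaged 1 CPM or more. All points come from the same 6 libraries and fall into 3 conditions, so r is a description. Closest to Npy2r was Spry4, an inhibitor of growth factor receptor signalling (r = 0.9994), then Fcho1, Appl2, Sap30 and Rsrc2. Spry4 stood at 1.98 and 1.8 CPM in 2D FBS, 3.75 and 2.6 CPM in 2D FNHCS, and 22.6 and 27.1 CPM in 3D FNHCS, a much smaller range than that of Npy2r. Closest to Npy6r was Lrrfip1 (r = 0.9982), then Rheb, a small GTPase upstream of mTORC1, Fstl3, Plaur and Ptpla. Plaur, the urokinase receptor gene, stood at 518 and 423 CPM in 2D FBS, 19 and 21.1 CPM in 2D FNHCS, and 22 and 20.9 CPM in 3D FNHCS. Closest to Npy1r was the vomeronasal receptor gene Vmn1r65 (r = 0.9922), then Gimap1, Ncoa3, 5430427O19Rik and E030030I06Rik.

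Alveolar markers changed across the same conditions. The 8 type 2 markers summed to 373 to 549 CPM in 2D FBS, 43427 to 53561 CPM in 2D FNHCS and 46572 to 63246 CPM in 3D FNHCS. Sftpc, which encodes surfactant protein C, made up 70.8% to 79.8% of that sum in 2D FBS, 94.4% to 96.0% in 2D FNHCS and 64.8% to 71.9% in 3D FNHCS. Of the 8 markers, 6 fell in 2D FBS against 2D FNHCS and 8 fell in 2D FBS against 3D FNHCS. In 2D FNHCS against 3D FNHCS, the comparison in which Npy2r was 538-fold lower, 6 fell and 0 rose by edgeR and by DESeq2. Those were Sftpa1 (-3.28 ± 0.423, adjusted p = 0.00864), Slc34a2, Lamp3 (-2.71 ± 0.346, adjusted p = 0.00843), Sftpb, Etv5 and Abca3. Calls of Sftpa1, Sftpb and Lamp3 held there on leaving out any 1 library. Abca3 was lost without SN3595 in 3D FNHCS, Etv5 without either 3D FNHCS library, and Slc34a2 without SN3595 in 3D FNHCS or either 2D FNHCS library (adjusted p up to 0.0738). Sftpc itself (0.31 ± 0.419, adjusted p = 0.626) and Napsa (adjusted p = 0.166) were not called. The 8 type 1 markers summed to 19515 to 21004 CPM in 2D FBS, 4048 to 9747 CPM in 2D FNHCS and 1658 to 2057 CPM in 3D FNHCS, and Ager rose by 4.95 ± 0.534 in 2D FBS against 3D FNHCS (adjusted p = 0.00175). Of the type 1 markers, 1 rose in 2D FBS against 2D FNHCS, 5 rose in 2D FBS against 3D FNHCS and 3 rose in 2D FNHCS against 3D FNHCS. The part of these markers in the receptor levels was not tested. The 3 general lung epithelium markers summed to 1671 to 2293 CPM in 2D FBS and 1723 to 1812 CPM in 2D FNHCS. In 3D FNHCS they summed to 1092 to 1197 CPM, but the 3 did not move together. Cdh1 stood at 1241 and 1923 CPM in 2D FBS and at 341 and 471 CPM in 3D FNHCS. Epcam went from 348 and 287 CPM in 2D FBS to 619 and 532 CPM in 3D FNHCS. Nkx2-1 went from 80.8 and 83.4 CPM to 131 and 194 CPM. DESeq2 called Epcam and Nkx2-1 lower in 2D FBS than in 3D FNHCS, and edgeR called neither.

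Markers of other cells were compared with the receptors. The 13 neuroendocrine and neuronal markers, of which 2 passed the filter, summed to 1.69 to 1.7 CPM in 2D FBS, 1.31 to 2.91 CPM in 2D FNHCS and 1.45 to 1.53 CPM in 3D FNHCS, where Npy2r alone stood at 158 and 239 CPM. Calca had at most 2 counts in a library. Syp, a synaptic vesicle gene, had 4 and 4 counts in 2D FBS, 14 and 11 counts in 2D FNHCS, and 11 and 31 counts in 3D FNHCS. It fell in 2D FBS against 3D FNHCS (-2.44 ± 0.752, adjusted p = 0.0436), a call lost without any 1 library (adjusted p up to 0.29) and not made by DESeq2. The 5 airway markers, of which 3 passed the filter, summed to 1.14 to 4.41 CPM in 2D FBS, 1.4 to 8.21 CPM in 2D FNHCS and 4.92 to 13.8 CPM in 3D FNHCS. Muc5b, a mucin gene, had 1 and 3 counts in 2D FBS, 13 and 21 counts in 2D FNHCS, and 133 and 460 counts in 3D FNHCS, the order of Npy2r. It fell in 2D FBS against 3D FNHCS (-7.22 ± 0.903, adjusted p = 0.00256). It also fell in 2D FNHCS against 3D FNHCS (-4.33 ± 0.727, adjusted p = 0.0149), a call lost when either 2D FNHCS library, or SN3595 in 3D FNHCS, was left out (adjusted p up to 0.0581). Muc5b made up 3.83 and 13.0 CPM of the airway sums in 3D FNHCS, and edgeR called no other airway marker. Within each line Scgb1a1, another airway marker, was lowest in 3D FNHCS. It had 16 and 165 counts in 2D FBS, 20 and 292 counts in 2D FNHCS, and 3 and 23 counts in 3D FNHCS. DESeq2 called Scgb1a1 higher in 2D FNHCS than in 3D FNHCS, and edgeR did not. None of the 4 endothelial markers passed the filter, and their sum was at most 0.621 CPM. The 4 leukocyte markers summed to 1.65 to 3.16 CPM in 2D FBS, 1.81 to 5.9 CPM in 2D FNHCS and 20 to 21 CPM in 3D FNHCS, of which Cd68 made up to 20.5 CPM and Cd3e had 0 counts in 3D FNHCS. The part of these markers in the Npy2r level was not tested.

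In 2D FBS, where Npy6r was counted, 2 further lists had their highest sums, each mainly from 1 gene. The 6 fibroblast and smooth muscle markers summed to 24.6 to 106 CPM in 2D FBS, 1.13 to 1.32 CPM in 2D FNHCS and 0.576 to 0.709 CPM in 3D FNHCS. Myh11, smooth muscle myosin, made up 105 and 23.1 CPM of the 2D FBS sums. It had 3661.97 and 911.72 counts in 2D FBS and at most 5 counts elsewhere, with SN3593 the higher line as for Npy6r. Col1a1 had 12 and 5 counts in 2D FBS against 19 and 24 in 2D FNHCS, and Dcn 8 and 9 against 15 and 13. Col1a2 had 8 and 41 counts in 2D FBS against 7 and 5 in 2D FNHCS. Pdgfra and Pdgfrb had at most 7 counts in any library. The 4 mesothelial markers, of which Msln alone passed the filter, summed to 552 to 2142 CPM in 2D FBS, 6.96 to 307 CPM in 2D FNHCS and 4.9 to 12.2 CPM in 3D FNHCS. Msln made up 551 and 2142 CPM of the 2D FBS sums, with SN3595 the higher line. Upk3b had 19 and 7 counts in 2D FBS and 0 counts elsewhere, and Wt1 had at most 7 counts. The part of these markers in the Npy6r level was not tested.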

How the data were processed

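PolyA RNA of 6 libraries, 2 per condition, was sequenced. The authors deposited expected counts per gene. Per the submitters' processing notes, RSEM 1.3.1, Bowtie 1.2.3 and build mm9 were used. The sources used here name neither the annotation nor the options. Expected counts split reads with several possible origins by a model.

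Expected counts were rounded and tested with edgeR 4.0.16 (R 4.3.3): quasi-likelihood test, TMM scaling, default filter, all libraries in 1 fit with 3 residual degrees of freedom, Benjamini-Hochberg adjustment over 14416 genes, called below 0.05 (8808 genes did not pass the filter). Symbols of 25 genes appear as dates. The SE is the absolute log2 fold change over the square root of F. The script was tested on simulated data. Samples were grouped by treatment label.

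Replicate numbers follow the line. Line differences correlated at 0.379, 0.245 and 0.422 between conditions across genes, so line pairs the libraries. DESeq2 1.42.0, other scalings and filters, line as a replicate block and leaving out each library were alternatives.

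Members and lists were chosen with earlier results of these data known. Named genes are the members, pathway genes, called peptide receptors, the 5 most alike genes per member, the 2 nearest genes each side, and markers. Files and reference differ in build, so coordinates are given for reference promoters alone. Lengths come from GENCODE M21. Olfr and Vmn rows were added after seeing the data.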

Additional observations from a re-analysis of the deposited data

Results flagged for a closer look

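Npy1r in 2D FBS against 3D FNHCS had log2 ratios of unlike sign in the lines, with almost no change in SN3593. Its log2 ratio was 0.01 in SN3593 and -0.27 in SN3595. The difference between the lines was not tested. The SE of 0.642 of the fitted change comes from a fit without line, so it does not measure the spread of these within-line ratios.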

How the results depend on the processing

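When libraries were left out, counts of called genes for 2D FBS against 2D FNHCS ranged from 91 to 1234 (1531 with all libraries), lowest without the 2D FBS library of SN3593, from 3187 to 5976 in 2D FBS against 3D FNHCS (5836), and from 628 to 1805 in 2D FNHCS against 3D FNHCS (2652), these lowest without the 3D FNHCS library of SN3593. The pathway genes called ranged from 2 to 9, from 11 to 25 and from 6 to 10 in that order. With line as a replicate block the counts of all genes were 2700, 7112 and 4181, and the pathway genes numbered 15, 25 and 18. DESeq2 called 2966 genes in 2D FBS against 2D FNHCS. Between the lines DESeq2 called 742 genes and edgeR 73 without a filter, against 1 in the fit reported and 0 with library size alone, with a stricter filter or without any 1 library. Npy2r in 2D FNHCS against 3D FNHCS was -9.04 in the fit and -7.16 on the log2 scale of CPM plus 1, which understates changes of low levels. Npy1r in 2D FBS against 3D FNHCS ranged from -0.8 to 0.44 when libraries were left out. Library size alone moved the median of all genes to -0.33, -0.14 and 0.19. The 56 calls of pathway genes and other peptide receptors, which hold no marker, were all kept by DESeq2, other factors and the block. Library size alone lost 4 of them and no filter lost 1. Leaving out each library in turn kept 235 and lost 101, with no sign changed. Where calls were lost, the cause was not tested beyond fewer libraries. With 2 libraries per condition, small changes may be missed, and counts near 3 per library cannot show a difference.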
